A study of Artemia parthenogenetic lineage with 6 samples.

Results

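Chromatin accessibility at 4 candidate GPCR genes of *Artemia* was compared between cysts 5 h after embryonic diapause termination (EDT) and cysts in diapause. They are evm.TU.ctg288.3, evm.TU.ctg71.25, evm.TU.ctg485.29 and evm.TU.ctg179.30, and they make up 4 of the 12010 genes to which the peaks were linked. All 77 peaks whose nearest gene is 1 of these 4 were taken, out of 112790 peaks in the table. The genes were picked from the candidate GPCRs named in the study because some of their peaks were higher after EDT in these same 6 libraries. The study placed evm.TU.ctg288.3, evm.TU.ctg71.25 and evm.TU.ctg485.29 in its earlier stage after EDT and evm.TU.ctg179.30 in its later one. It did so from ATAC-seq and RNA-seq together, whereas the contrast here spans both stages and uses no RNA data. The calls at these genes come from a fit over all peaks of the table, and since the same values chose the genes, they serve as a description and not as a test of a gain.

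ATAC-seq uses the Tn5 transposase to cut and tag open DNA, so that the number of reads in a peak follows how accessible that stretch is. The ArR_5h group holds wild-type *A. parthenogenetica* cysts collected 5 h after EDT, and the ArD_0h group holds untreated wild-type cysts of the same batch in diapause, with 3 libraries in each group. The treatment labels of ArR_5h replicates 1, 2 and 3 read 28, 29 and 30 °C, but a single protocol of 28 °C is given for all. Which temperature replicates 2 and 3 had is thus unclear, and an effect of it cannot be told apart from that of time. The methods of the study describe breaking diapause by dehydration and refrigeration, then reactivating cysts in artificial seawater under continuous illumination. If ArR_5h was treated this way, effects of these steps, light included, cannot be told apart from that of time either. Both groups are whole cysts mapped to the genome of another species, *A. franciscana*, and the table carries gene IDs without symbols, so cell type markers were not checked. In such bulk samples, a change in the make-up of cells and a change within cells cannot be told apart.

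GPCRs are membrane proteins that bind a signal outside the cell and switch on heterotrimeric G proteins inside it. Adhesion GPCRs are a family with long extracellular parts that contact other cells or the surrounding matrix, and opsins are GPCRs that bind retinal and make a cell sensitive to light, one of the cues known to end diapause in *Artemia* cysts. In the genome annotation that the study used, evm.TU.ctg485.29 is an Adhesion GPCR E5 and also carries terms for carbohydrate binding and scavenger receptor activity, evm.TU.ctg288.3 carries terms for GPCR activity and carbohydrate binding, evm.TU.ctg71.25 carries GPCR activity, and evm.TU.ctg179.30 belongs to the opsin family. In the study's structure predictions, the proteins of evm.TU.ctg71.25, evm.TU.ctg485.29 and evm.TU.ctg179.30 had the membrane-spanning helices typical of GPCRs with most or all tools. That of evm.TU.ctg288.3 had fewer helices with each tool and was not among the GPCRs so identified. The ligands of these candidate receptors in *Artemia* are not known from the sources used here.

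The libraries held 5239170 to 9366963 counts in peaks. ArD_0h replicate 1 stood apart from the other libraries of its group. Its Spearman correlation across peaks was 0.642 with replicate 2 and 0.633 with replicate 3, against 0.829 between ArD_0h replicates 2 and 3 and 0.872 to 0.907 within ArR_5h. Where leaving out this library changed a call, or moved the log2 difference of a called peak by more than 1.5 times, the value without it is given as well.

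A peak was called when edgeR's quasi-likelihood test, adjusted by Benjamini-Hochberg over all 112211 tested peaks, reached 0.05 or less and the log2 difference (ArR_5h over ArD_0h) exceeded 1 in size. All 77 peaks of the 4 genes passed the filter on low counts. Of these, 20 (26.0%) were called higher and 2 (2.60%) lower in ArR_5h, beside 14.5% and 15.2% of all tested peaks, but the genes were chosen on this contrast and nothing is read from the comparison. The median log2 difference was 0.51 over the 77 peaks and -0.07 over all tested peaks. The 55 peaks that were not called were split into 35 above 0 and 20 below 0. In 34 of the 77 peaks all 3 ArR_5h libraries lay above all 3 ArD_0h libraries, and in 8 all lay below, beside 26.4% and 25.7% of all tested peaks. The 20 higher peaks differed by 1.06 to 1.84 on the log2 scale (median 1.35), and in each of them the 2 groups of libraries did not overlap.

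The 20 higher peaks were unevenly divided among the genes. There were 8 of 14 (57.1%) at evm.TU.ctg288.3, 5 of 32 (15.6%) at evm.TU.ctg71.25, 5 of 16 (31.3%) at evm.TU.ctg485.29 and 2 of 15 (13.3%) at evm.TU.ctg179.30. Both lower peaks belonged to evm.TU.ctg71.25. The share was largest at evm.TU.ctg288.3, where the higher peaks numbered 5 of 14 without ArD_0h replicate 1 and 6 of 14 when a trend on peak level was removed from each library. At evm.TU.ctg485.29, 2 of 16 were called without this library, while the shares at evm.TU.ctg71.25 and evm.TU.ctg179.30 lay near that of all tested peaks. Among the 2523 genes with at least 14 tested peaks, the median share of higher peaks was 13.3% and the 90th percentile was 38.6%.

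**Figure D1:**
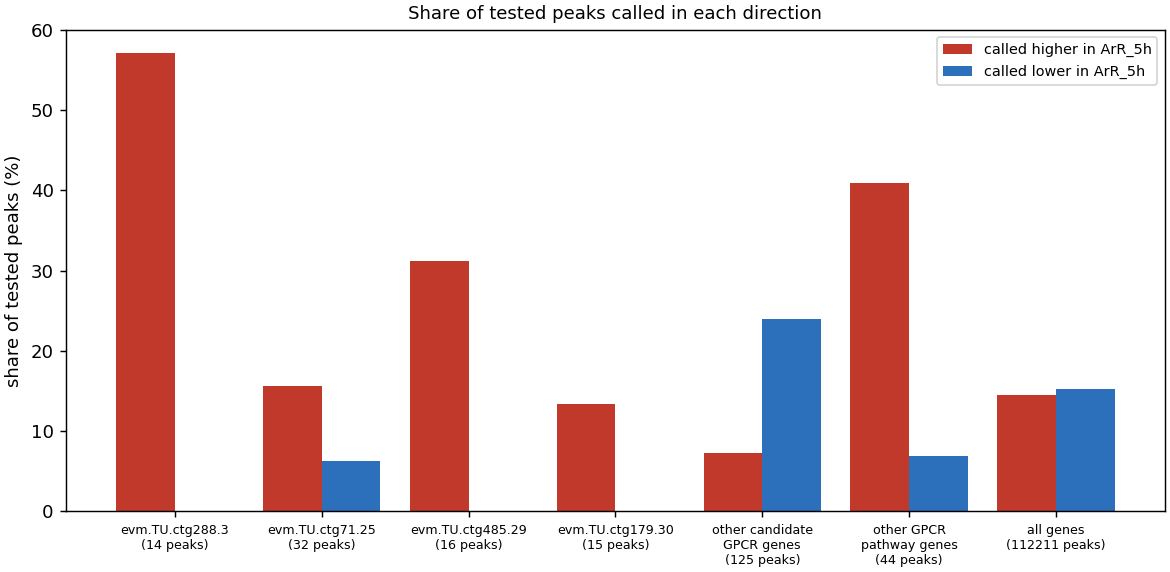
Share of tested peaks (%) called higher (red) and lower (blue) in ArR_5h, with the number of tested peaks under each name. Shown are each of the 4 genes, the other candidate GPCR genes, 4 further listed genes of the GPCR signaling pathway and all genes. The share higher ran from 57.1% at evm.TU.ctg288.3 to 13.3% at evm.TU.ctg179.30, and only evm.TU.ctg71.25 of the 4 had lower peaks (6.25%).

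The genes also differed in level. As CPM (counts in peaks scaled to TMM-normalized library sizes) summed over all peaks of a gene and divided by their total width, evm.TU.ctg288.3 had 30.8, 33.98 and 26.9 CPM per kb in ArR_5h replicates 1, 2 and 3, against 9.69, 17.0 and 14.8 CPM per kb in ArD_0h replicates 1, 2 and 3. For evm.TU.ctg485.29 these levels were 27.0, 26.1 and 23.4 CPM per kb in ArR_5h, against 14.2, 20.8 and 21.2 CPM per kb in ArD_0h. The groups did not overlap at either gene, and ArD_0h replicate 1 was the lowest library of all at both. Without this library the ratios of the means were 1.92 at evm.TU.ctg288.3 and 1.22 at evm.TU.ctg485.29. The levels of evm.TU.ctg71.25 were 18.2, 18.0 and 18.1 CPM per kb in ArR_5h, against 16.2, 14.5 and 14.4 CPM per kb in ArD_0h. Those of evm.TU.ctg179.30 were 15.9, 17.2 and 16.5 CPM per kb in ArR_5h, against 13.6, 13.6 and 12.9 CPM per kb in ArD_0h. At both of these genes ArD_0h replicate 1 was not the lowest. Without it the ratios of the means were 1.25 at evm.TU.ctg71.25 and 1.25 at evm.TU.ctg179.30. The gap between the groups was narrow at both, as it was at evm.TU.ctg485.29. Over all tested peaks the level was 22.4, 21.8 and 21.9 CPM per kb in ArR_5h, against 19.3, 21.1 and 21.1 CPM per kb in ArD_0h.

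In ArR_5h the mean levels ran from evm.TU.ctg288.3 (30.6 ± 3.55 CPM per kb, SD, n = 3) through evm.TU.ctg485.29 (25.51 ± 1.87) and evm.TU.ctg71.25 (18.1 ± 0.0701) to evm.TU.ctg179.30 (16.5 ± 0.693). In ArD_0h evm.TU.ctg485.29 was the highest (18.7 ± 3.92 CPM per kb), above evm.TU.ctg71.25 (15.0 ± 1.01), evm.TU.ctg288.3 (13.8 ± 3.75) and evm.TU.ctg179.30 (13.4 ± 0.430). In ArR_5h the libraries of evm.TU.ctg288.3 and evm.TU.ctg485.29 overlapped slightly and those of the other neighbours in this order did not, whereas in ArD_0h each neighbouring pair overlapped.

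**Figure D2:**
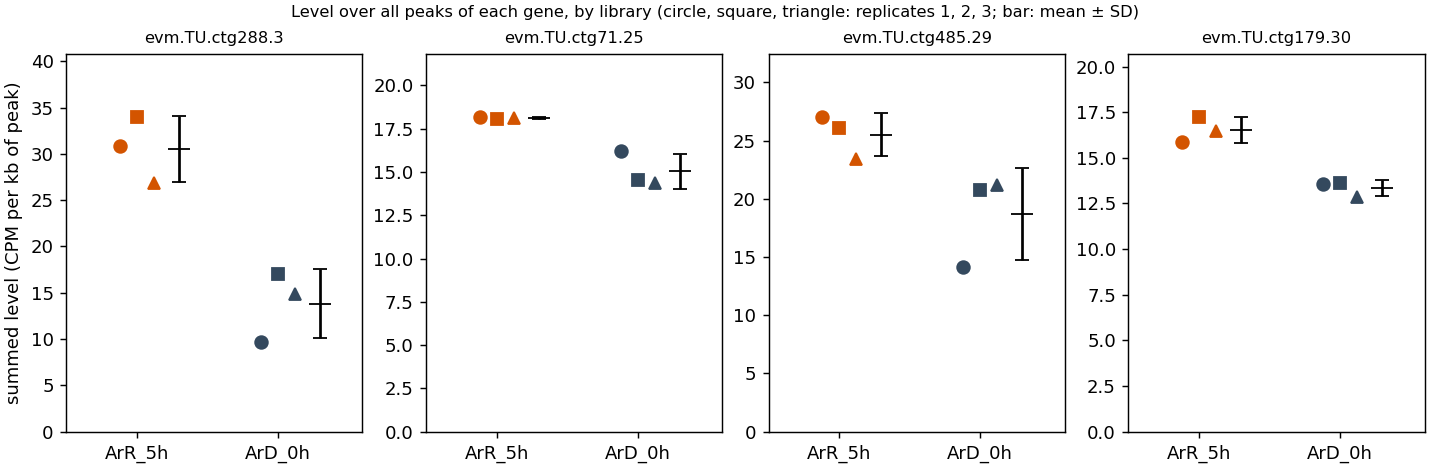
Summed level of each gene (CPM per kb of peak) in ArR_5h and ArD_0h, with circles, squares and triangles for replicates 1, 2 and 3 and bars for the mean ± SD (n = 3). At evm.TU.ctg288.3 the ArR_5h libraries sit between 26.9 and 33.98 and the ArD_0h libraries between 9.69 and 17.0, whereas at evm.TU.ctg179.30 the ranges are 15.9 to 17.2 and 12.9 to 13.6.

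When the counts were summed per gene and fitted over all 12002 tested genes, evm.TU.ctg288.3 had a log2 difference of 1.08 (SE 0.17), the 208th highest. It was the only one of the 4 past both limits, beside 2.57% of genes higher and 5.97% lower. The log2 difference of the sum was 0.39 (SE 0.14) for evm.TU.ctg485.29, 0.24 (SE 0.10) for evm.TU.ctg179.30 and 0.19 (SE 0.10) for evm.TU.ctg71.25. Without ArD_0h replicate 1 it was 0.25 for evm.TU.ctg485.29, 0.29 for evm.TU.ctg71.25 and 0.28 for evm.TU.ctg179.30. When the trend on level was removed as well, it was 0.11, 0.14 and 0.28 in the same order. For evm.TU.ctg71.25 it was 0.07 with the trend removed and 0.42 when scaled by the totals recovered from RPM, and for evm.TU.ctg179.30 it was 0.46 with these totals. The call of evm.TU.ctg288.3 was lost without ArD_0h replicate 1 (0.90), and without ArR_5h replicate 2 the value fell just under the limit (1.00). It also fell under the limit when the trend on level was removed (0.99).

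The gene evm.TU.ctg288.3 spans the contig ctg288 from 210709 to 304529 on the minus strand of the *A. franciscana* assembly. Its 14 peaks run from 33223 bp upstream of the transcription start site (TSS) to 20322 bp inside the gene, with 8 upstream, 1 over the TSS and 5 in the gene body. Whether a peak inside a gene is exonic or intronic is not stated in the table. All 14 peaks had a log2 difference above 0, from 0.47 to 1.48 with a median of 1.19, and in 12 of them the libraries of the 2 groups did not overlap. Summed over the 8 upstream peaks, the level was 86.2, 92.4 and 83.6 CPM in ArR_5h, against 27.5, 48.9 and 34.4 CPM in ArD_0h. Over the 5 peaks in the body it was 96.6, 111.1 and 78.5 CPM in ArR_5h, against 27.0, 50.9 and 54.3 CPM in ArD_0h. Both sides of the TSS were thus higher in ArR_5h, by ratios of the means of 2.37 and 2.16, or 2.10 and 1.81 without ArD_0h replicate 1.

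The TSS itself stood out as the smallest difference of this gene. The peak over the TSS (ctg288, 304495 to 304785) had 7.99, 6.85 and 4.31 CPM in ArR_5h, against 5.43, 5.35 and 3.04 CPM in ArD_0h. The groups overlapped, and the log2 difference was 0.47 (SE 0.33), which was not called. Only 644 bp upstream, the peak at 305173 to 305372 had 7.43, 6.73 and 4.87 CPM in ArR_5h, against 2.09, 2.75 and 2.09 CPM in ArD_0h. It was called higher, with a log2 difference of 1.46 (SE 0.35), and kept the call in each of the 13 alternative fits. The log2 difference was thus larger upstream than over the TSS, although the difference between the 2 peaks was not tested.

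Further upstream, the peak 10761 bp before the TSS had 10.02, 10.9 and 12.9 CPM in ArR_5h, against 3.76, 5.35 and 2.85 CPM in ArD_0h, with the largest log2 difference of this gene (1.48, SE 0.30). The farthest peak, 33223 bp before the TSS, had 9.002, 11.6 and 10.7 CPM in ArR_5h, against 3.48, 5.50 and 3.42 CPM in ArD_0h (log2 difference 1.32, SE 0.30). These 2 peaks and the one 644 bp upstream were the only peaks of the gene called in each alternative fit. At 28142 bp upstream the levels were 20.1, 25.498 and 22.5 CPM in ArR_5h, against 4.59, 12.2 and 10.3 CPM in ArD_0h (log2 difference 1.34, SE 0.32). At 20182 bp upstream they were 8.33, 8.62 and 4.87 CPM in ArR_5h, against 2.504, 3.06 and 3.99 CPM in ArD_0h (1.22, SE 0.34), and at 5357 bp upstream 13.3, 12.7 and 14.4 CPM in ArR_5h, against 4.87, 9.17 and 3.99 CPM in ArD_0h (1.15, SE 0.30). Each of these 3 lost its call when a library was left out. The peak at 28142 bp fell just under the limit without ArD_0h replicate 1 (1.00), the peak at 5357 bp without ArD_0h replicate 1 (0.99) or 3 (0.96), and the peak at 20182 bp did not pass the adjusted p without ArR_5h replicate 1 (1.12) or 2 (1.09).

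Inside evm.TU.ctg288.3, the peak 8060 bp after the TSS had the highest CPM of its peaks, without regard to width, with 31.3, 41.3 and 32.8 CPM in ArR_5h, against 4.31, 14.4 and 21.9 CPM in ArD_0h (log2 difference 1.39, SE 0.38). The spread within ArD_0h was wide there, and without ArD_0h replicate 1 the difference was 0.97, under the limit. The widest peak (931 bp), 20322 bp after the TSS, had 28.0, 32.5 and 19.9 CPM in ArR_5h, against 8.62, 14.2 and 10.3 CPM in ArD_0h (1.28, SE 0.31). It was called in each leave-one-out fit but not once the trend on level was removed (0.92). The 2 peaks just under the limit on size lay 6440 bp upstream (1.00) and 4993 bp inside the gene (0.99). Without ArD_0h replicate 1, 5 of the 8 higher peaks of evm.TU.ctg288.3 were called and no other peak of the gene was.

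**Figure D3:**
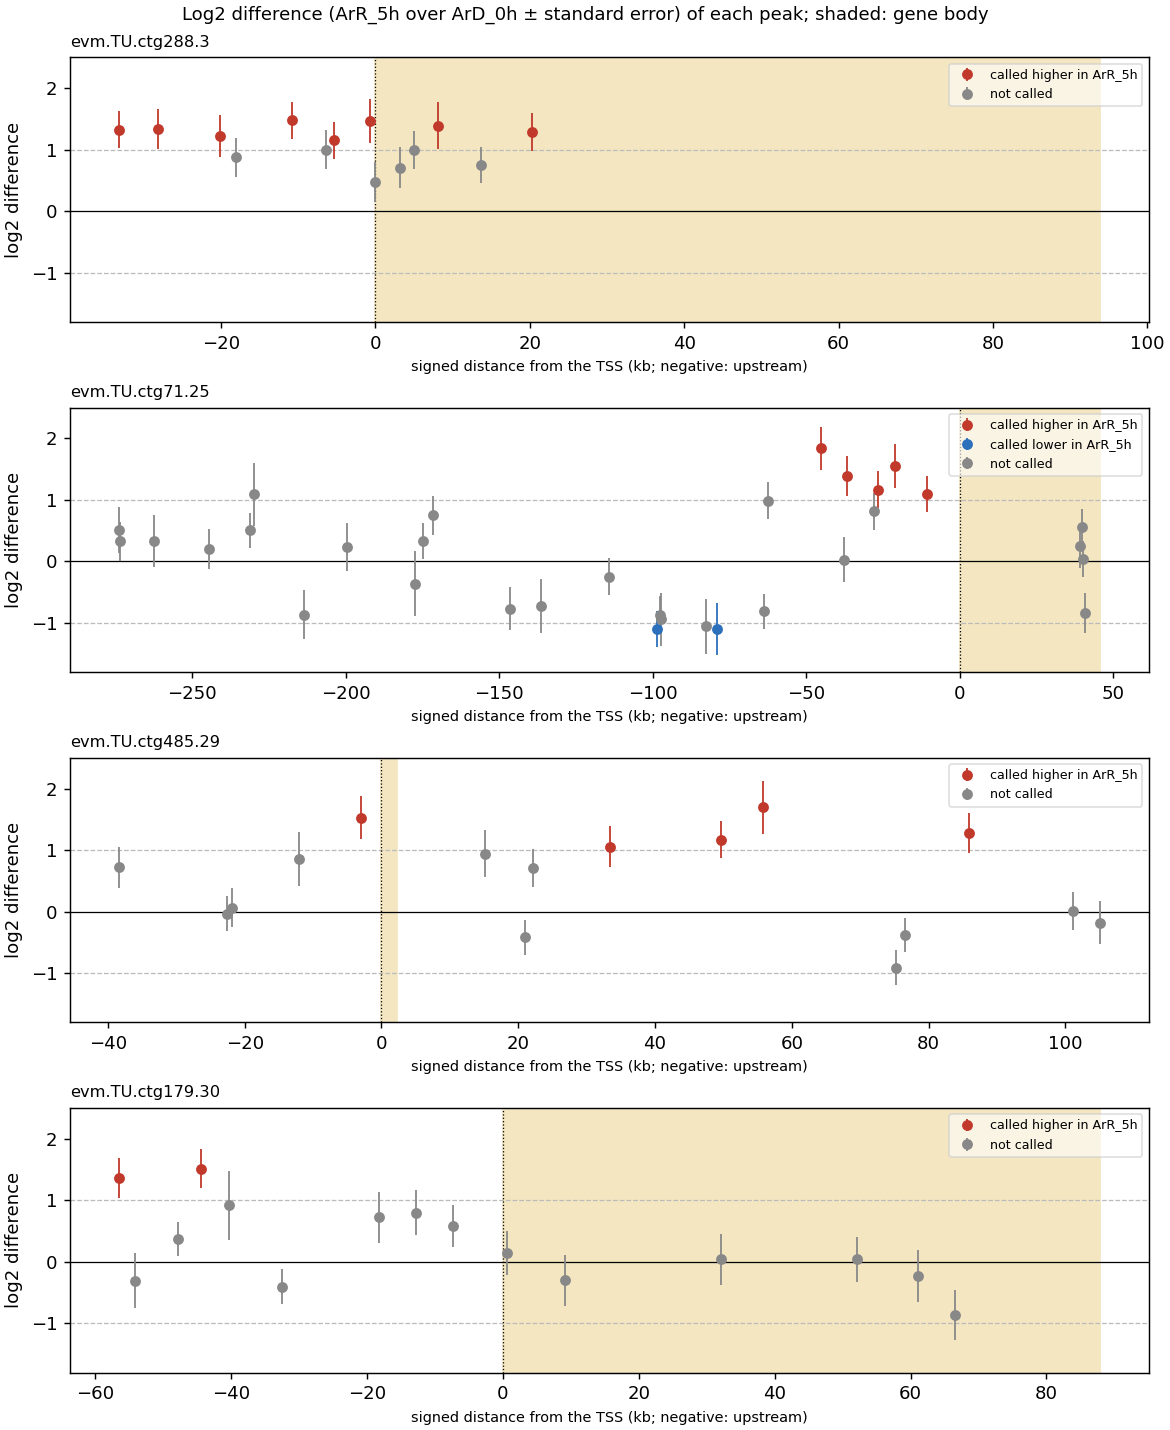
Log2 difference (ArR_5h over ArD_0h, ± SE) of each of the 77 peaks against its signed distance from the TSS (kb, negative upstream), in a panel per gene with the gene body shaded and dashed lines at the limits of 1 and -1. The peaks of evm.TU.ctg288.3 all lie above 0, those of evm.TU.ctg71.25 lie in blocks mostly above or below 0, and the called peaks of evm.TU.ctg179.30 lie 44396 and 56539 bp upstream.

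The gene evm.TU.ctg71.25 lies on ctg71 from 1941381 to 1986968 on the minus strand. It had 32 peaks, none within 3000 bp of the TSS, with 4 in the gene body and 28 upstream, as far as 273789 bp. No peak of another gene lay beyond them on that side, and the link of the far peaks to this gene rests on its being the nearest one. The median log2 difference was 0.24, with 20 peaks above 0 and 12 below. In 10 peaks all ArR_5h libraries lay above all ArD_0h libraries and in 6 all lay below.

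Gains and losses at evm.TU.ctg71.25 occupied separate stretches, whose limits were set after the values had been seen. The 8 peaks from 10490 to 62441 bp upstream were all above 0 and summed to 105.9, 112.0 and 97.5 CPM in ArR_5h, against 31.3, 54.9 and 49.0 CPM in ArD_0h, a ratio of the means of 2.33. The next 9 peaks, from 63833 to 146562 bp upstream, were all below 0 and summed to 37.6, 41.3 and 52.5 CPM in ArR_5h, against 98.2, 69.1 and 62.1 CPM in ArD_0h, a ratio of 0.573. The groups did not overlap in either stretch, and ArD_0h replicate 1 was the most distant library from ArR_5h in both. The limit between the stretches lies where the sign of the differences changed, so this separation follows in part from the cut. Without ArD_0h replicate 1 the ratios were 2.02 and 0.667. Of the 11 farthest peaks, from 171539 bp on, 9 were above 0, and their sum was 70.0, 58.1 and 56.8 CPM in ArR_5h, against 53.7, 43.6 and 53.4 CPM in ArD_0h. The 4 peaks in the gene body, all 39217 to 40941 bp after the TSS, summed to 21.6, 21.8 and 27.4 CPM in ArR_5h, against 26.4, 20.3 and 21.5 CPM in ArD_0h. In the body the groups overlapped. The sum over the whole gene therefore differed little, although single stretches moved in opposite directions.

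All 5 higher peaks of evm.TU.ctg71.25 were in the nearest stretch. The peak 45261 bp upstream (ctg71, 2032229 to 2033243, 1015 bp wide) had 27.1, 33.9 and 25.9 CPM in ArR_5h, against 3.62, 12.1 and 8.74 CPM in ArD_0h. This log2 difference of 1.84 (SE 0.35) was the largest among the 77 peaks, and it was 1.46 without ArD_0h replicate 1. The peak 21175 bp upstream had 9.68, 9.33 and 6.75 CPM in ArR_5h, against 1.25, 3.98 and 3.80 CPM in ArD_0h (1.55, SE 0.36), and the peak 36656 bp upstream had 9.90, 11.5 and 7.12 CPM in ArR_5h, against 2.64, 3.06 and 5.51 CPM in ArD_0h (1.38, SE 0.33). These 3 peaks were called in each of the 13 alternative fits. At 26431 bp upstream the levels were 14.9, 16.3 and 15.7 CPM in ArR_5h, against 4.03, 9.33 and 7.60 CPM in ArD_0h (1.17, SE 0.30). The peak nearest to the TSS, 10490 bp upstream, had 21.4, 21.0 and 21.2 CPM in ArR_5h, against 8.07, 13.0 and 8.55 CPM in ArD_0h (1.10, SE 0.29). These last 2 peaks were almost level across the ArR_5h libraries, but they lost the call without ArD_0h replicate 1 (0.87 and 0.95). In the farthest stretch, the peak 171539 bp upstream went the other way. It was not called with all libraries (0.75) and was called higher without ArD_0h replicate 1 (1.02).

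The lower peaks of evm.TU.ctg71.25 were less stable. The peak 98588 bp upstream (2085556 to 2086583) had 5.85, 6.85 and 9.18 CPM in ArR_5h, against 20.2, 14.2 and 11.97 CPM in ArD_0h, with a log2 difference of -1.10 (SE 0.29). The groups did not overlap, but the call was lost without ArD_0h replicate 1 (-0.88) or ArR_5h replicate 1 (-0.96). The peak 78948 bp upstream had 1.58, 3.78 and 2.06 CPM in ArR_5h, against 8.21, 3.67 and 3.99 CPM in ArD_0h (-1.09, SE 0.42). Here ArR_5h replicate 2 was above ArD_0h replicate 2, and the call was lost without ArD_0h replicate 1 (-0.62) or without ArR_5h replicate 1 (-0.83) or 3 (-0.996).

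**Figure D4:**
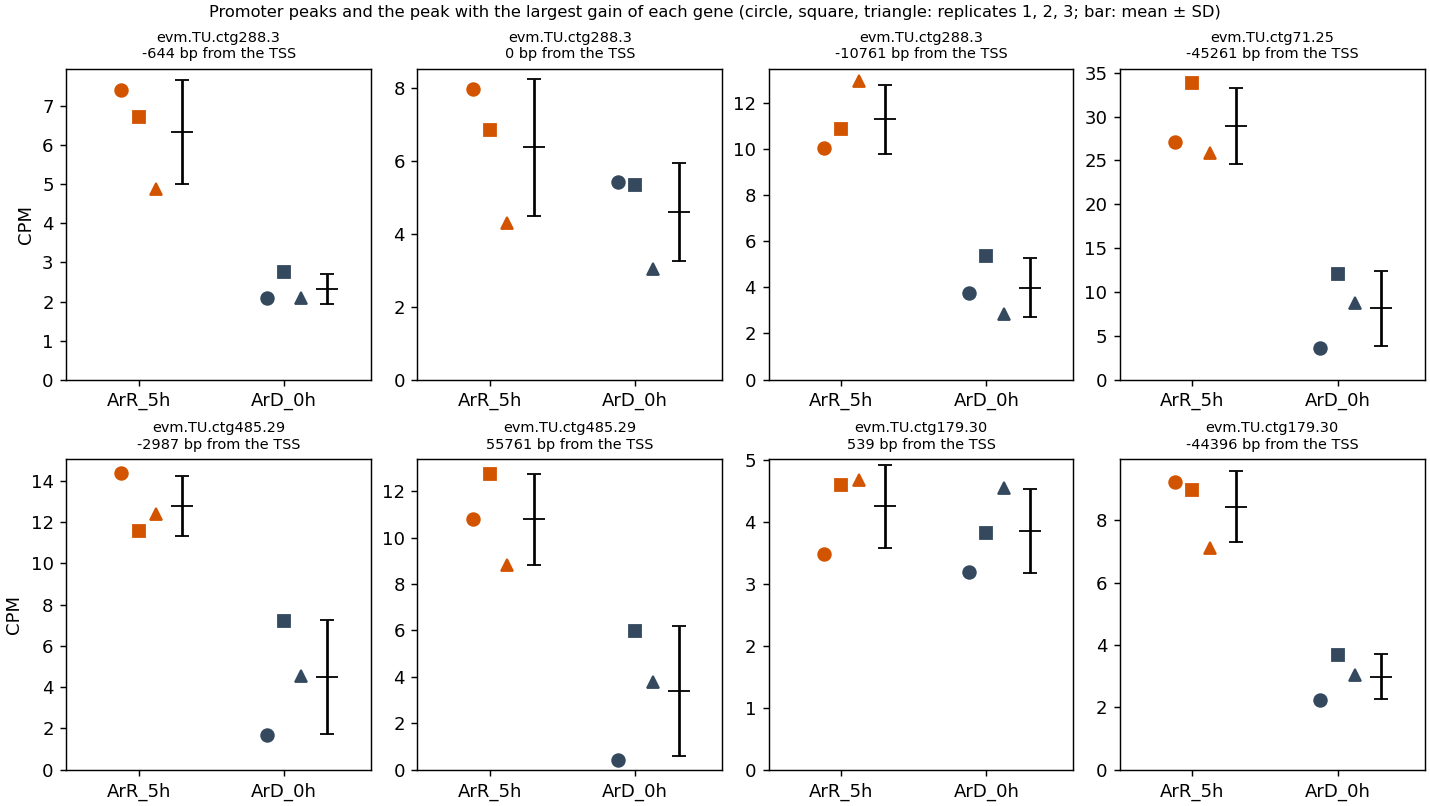
Level (CPM) of the promoter peaks and of the peak with the largest gain of each gene in ArR_5h and ArD_0h, with circles, squares and triangles for replicates 1, 2 and 3 and bars for the mean ± SD (n = 3). The groups overlap at the TSS peak of evm.TU.ctg288.3 (4.31 to 7.99 CPM in ArR_5h, 3.04 to 5.43 CPM in ArD_0h) and at the promoter peak of evm.TU.ctg179.30, and are separate in the other panels.

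The adhesion GPCR gene evm.TU.ctg485.29 is the shortest of the 4, at 2208 bp on the plus strand of ctg485. None of its 16 peaks overlapped the gene body, with 5 upstream and 11 beyond its end, up to 105007 bp from the TSS. The peak nearest to the gene, 2987 bp upstream (1302990 to 1303297), had 14.4, 11.6 and 12.4 CPM in ArR_5h, against 1.67, 7.19 and 4.56 CPM in ArD_0h, a log2 difference of 1.53 (SE 0.35). It was the only other higher peak within 3000 bp of a TSS besides the one 644 bp upstream of evm.TU.ctg288.3, and 18.0% of all tested promoter peaks were higher and 4.81% lower. Its difference was 1.10 without ArD_0h replicate 1, and 0.90, under the limit, when the trend on level was removed as well.

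The other 4 higher peaks of evm.TU.ctg485.29 lay beyond its end. The peak 55761 bp from the TSS had 10.8, 12.7 and 8.81 CPM in ArR_5h, against 0.417, 5.96 and 3.80 CPM in ArD_0h (log2 difference 1.70, SE 0.43). The ArD_0h replicate 1 value rests on 3 counts, the lowest count of any of the 77 peaks in a library, and without this library the difference was 1.13. The peak was not called with DESeq2, nor when the trend on level was removed and this library left out (0.98). At 85867 bp the levels were 14.2, 14.05 and 14.4 CPM in ArR_5h, against 2.78, 6.12 and 8.93 CPM in ArD_0h (1.28, SE 0.32). At 49595 bp they were 11.5, 13.5 and 14.6 CPM in ArR_5h, against 4.17, 5.35 and 8.17 CPM in ArD_0h (1.17, SE 0.29), and at 33421 bp 25.8, 20.4 and 19.9 CPM in ArR_5h, against 5.01, 14.1 and 12.9 CPM in ArD_0h (1.06, SE 0.33). ArD_0h replicate 1 was the lowest library in all 5 higher peaks of this gene. Without it the differences at 85867, 49595 and 33421 bp were 0.93, 0.97 and 0.70 and were not called, so that 2 of the 5 calls were kept. None of the 5 was called when the trend on level was removed as well. The peak 33421 bp away also lost its call without ArR_5h replicate 1 (0.93). The lowest log2 difference of the gene, -0.91 (SE 0.28) at 75248 bp, was -1.03 and called lower without ArD_0h replicate 1. The remaining 10 peaks, not called, differed by -0.42 to 0.94.

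The gene of the opsin family, evm.TU.ctg179.30, covers 87845 bp of ctg179 on the minus strand, with 6 peaks in its body and 9 upstream. The 6 peaks inside the gene summed to 17.8, 21.6 and 22.5 CPM in ArR_5h, against 23.1, 26.3 and 20.9 CPM in ArD_0h, and their log2 differences ran from -0.86 to 0.14. The groups overlapped inside the gene. The 9 upstream peaks summed to 56.3, 58.9 and 54.5 CPM in ArR_5h, against 40.3, 37.3 and 39.1 CPM in ArD_0h, a ratio of the means of 1.45, with no overlap. The only promoter peak, 539 bp inside the gene, had 3.49, 4.60 and 4.69 CPM in ArR_5h, against 3.20, 3.82 and 4.56 CPM in ArD_0h (0.14, SE 0.35).

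The 2 higher peaks of the opsin family gene were far upstream. The peak 44396 bp before the TSS (1855455 to 1855735) had 9.23, 8.97 and 7.12 CPM in ArR_5h, against 2.23, 3.67 and 3.04 CPM in ArD_0h, a log2 difference of 1.51 (SE 0.32). The peak 56539 bp before the TSS (1867598 to 1868096) had 6.41, 10.4 and 8.06 CPM in ArR_5h, against 2.92, 3.82 and 2.85 CPM in ArD_0h (1.37, SE 0.32). Both were called in each of the 13 alternative fits, and without ArD_0h replicate 1 they differed by 1.32 and 1.29. This gene had the lowest share of higher peaks of the 4, and neither of its calls depended on a single library.

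Of the 20 higher peaks, 14 (70.0%) lay upstream of their gene, 2 in the gene body and 4 beyond its end, against 34 of the 55 peaks not called (61.8%) upstream. Over all 77 peaks 50 (64.9%) were upstream, against 38.6% of all tested peaks. The median width of the higher peaks was 498.5 bp, against 291 bp in the peaks not called and 329 bp over all tested peaks. No test was made of these shares. The widest peaks can also hold more counts, and the part of width in the calls was not tested. Only 4 of the 77 peaks lay within 3000 bp of a TSS and only evm.TU.ctg288.3 had a peak over it, while 29.7% of all genes had one.

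ArD_0h replicate 1 was the lowest ArD_0h library in 16 of the 20 higher peaks (80.0%), beside 71.6% of all higher peaks of the table. It was the lowest in 38 of the 77 peaks (49.4%), beside 39.3% of all tested peaks. Without it, 13 of the 77 peaks were higher and 1 lower, beside 10.8% and 12.6% of all tested peaks. The direction was kept in each of the 20 higher peaks, whose differences without this library were 0.70 to 1.46. Over the leave-one-out fits, 11 of the 20 higher calls held in each fit, with 4 at evm.TU.ctg288.3, 3 at evm.TU.ctg71.25 and 2 each at the other two genes. Neither lower call held in each fit.

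**Figure D5:**
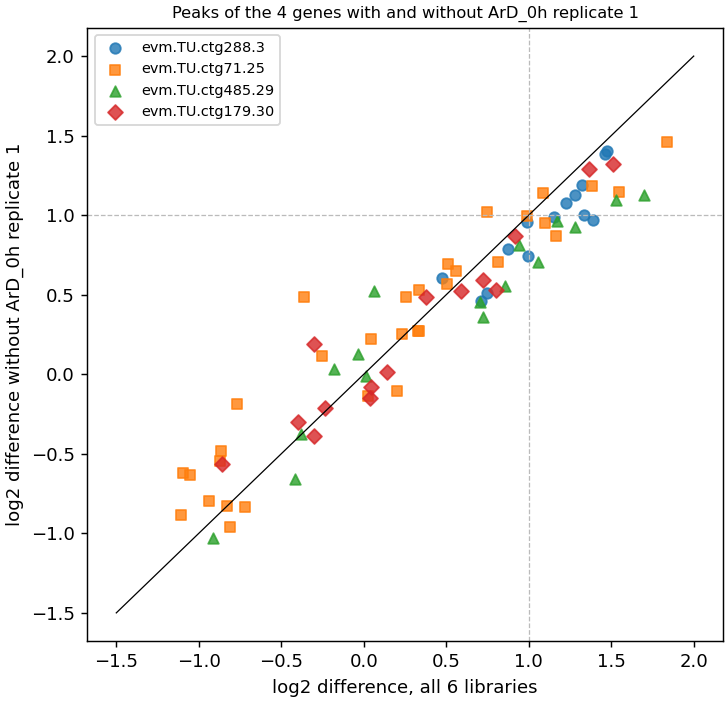
Log2 difference (ArR_5h over ArD_0h) of the 77 peaks in the fit of all 6 libraries (horizontal) and without ArD_0h replicate 1 (vertical), with a marker per gene, the line of equality and dashed lines at 1. The largest difference, at evm.TU.ctg71.25, is 1.84 with and 1.46 without this library, and the higher peaks of every gene lie below the line.

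Other GPCR genes served as a comparison. These lists were taken from the study, which chose them in part on these libraries, and they are not independent evidence. The other candidates are also those left after the 4 genes were picked for a gain. A lower median among them follows in part from that choice, and nothing is read from it. The median log2 difference was 0.51 over the 77 peaks, against -0.58 over the 125 tested peaks of the other 11 candidate GPCR genes, of which 9 (7.20%) were higher and 30 (24.0%) lower. Their summed counts ranged from a log2 difference of -1.16 at evm.TU.ctg195.9 to 0.54 at evm.TU.ctg321.8, a Frizzled-10 receptor for Wnt ligands. A further 4 genes carry the term for the GPCR signaling pathway without being candidate receptors. They come only from the part available here of the study's list of genes that changed in both ATAC-seq and RNA-seq. Of their 44 peaks, 18 (40.9%) were higher and 3 (6.82%) lower, with a median of 0.71. Among them evm.TU.ctg824.6, annotated with G protein and GTPase terms, had the highest log2 difference of its sum (0.82) with 9 of 14 peaks higher, and evm.TU.ctg637.4 the lowest (0.44).

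The surroundings of the genes differed as well. On ctg288, 18 of the 71 tested peaks of the 4 other genes (25.4%) were higher and 10 lower, and of the 5 nearest peaks of other genes 2 were higher on each side of evm.TU.ctg288.3. On ctg179, 47 of 191 (24.6%) were higher and 28 lower, but none of the 5 nearest on either side was higher. On ctg485, 25 of 121 (20.7%) were higher and 8 lower, with none among the 5 nearest on either side, and on ctg71, 11 of 159 (6.92%) were higher and 19 lower, with none among the 5 nearest on the side that had any. The neighbours at higher coordinates had log2 differences of -0.28 to 1.36 (median 0.88) for the 5 beside evm.TU.ctg288.3 and of 0.60 to 0.98 (median 0.86) for the 5 beside evm.TU.ctg485.29. For the 5 beside evm.TU.ctg179.30 they were -0.81 to 0.97 (median -0.19). The medians of the 5 neighbours at lower coordinates were 0.93 for evm.TU.ctg288.3, 0.43 for evm.TU.ctg71.25 and 0.09 for evm.TU.ctg485.29. For evm.TU.ctg179.30 this median was -0.56, and 2 of the 5 were called lower.

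The genes with the most similar pattern over the 6 libraries were sought among 456 genes. These have annotation terms in the part available here of the study's list of genes that changed in both ATAC-seq and RNA-seq. Likeness was taken as the smallest root mean square difference of log2 CPM of summed counts, each gene centred on its own mean. For evm.TU.ctg288.3 the most similar gene was evm.TU.ctg37.21, with a term for sequence-specific transcription factor activity (0.0759). For evm.TU.ctg71.25 it was evm.TU.ctg665.4, a structural molecule gene (0.0505), for evm.TU.ctg485.29 it was evm.TU.ctg1151.4, with a term for protein binding (0.0331), and for evm.TU.ctg179.30 it was evm.TU.ctg208.16, with a protein kinase term (0.0496). The second most similar genes were close behind, at 0.0880, 0.0557, 0.0465 and 0.0543 in the same order. Among the 4 candidate GPCR genes, evm.TU.ctg179.30 and evm.TU.ctg71.25 were the most alike by this measure (0.0633) and evm.TU.ctg288.3 and evm.TU.ctg71.25 the least (0.551). The order differed by Pearson correlation over the 6 libraries. It was highest for evm.TU.ctg288.3 with evm.TU.ctg485.29 (0.94) and lowest for evm.TU.ctg485.29 with evm.TU.ctg71.25 (0.17). All these values share the same 6 libraries and their depths.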

How the data were processed

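Cysts of *A. parthenogenetica* were measured by ATAC-seq in 2 groups, ArR_5h and ArD_0h, with 3 biological replicates each, grouped by their titles. Per the labels, BWA and MACS2 were used. The study names ChIPseeker for the distribution of its peaks over functional regions. Whether it also linked the peaks of this table to genes, which tool counted reads, and whether reads were shifted for Tn5 are not given in the sources used here. The deposited counts are whole numbers of reads per merged peak and library, which the authors did not normalize. The deposited RPM values are the authors' counts plus 1 scaled by a library total, and they served only to recover these totals for an alternative. Positions, distances to the TSS and the nearest gene are those of the deposited table. It holds 0 per-sample columns that could not be assigned.

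The counts were fitted in R 4.3.3 with edgeR 4.0.16 (TMM, filterByExpr, quasi-likelihood test, group as the only term) over all peaks, and again summed per gene. The standard error was taken as the log2 difference over the root of the F statistic. CPM values have no prior count. Peaks within 3000 bp of a TSS were counted as promoter peaks. The procedure was also run on simulated data with the same dispersion for all peaks and libraries. No simulated library stood apart from its group, so that run does not bear on a library such as ArD_0h replicate 1. Alternatives were DESeq2 1.42.0, other size factors, the recovered totals, no filter on low counts, a loess trend on level removed with limma 3.58.1, the replicate block, no limit on size, a promoter distance of 1000 bp and each library left out. The trend removed together with ArD_0h replicate 1 left out, and peaks within 100000 bp of the TSS, were added after seeing the data. Tables and figures were made with pandas 2.3.3, numpy 2.4.6 and matplotlib 3.10.9 in Python 3.11.15.

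The members, lists and alternatives were chosen with earlier results of these data known. For each of the 4 genes, promoter peaks and called peaks were given in each library. Of the comparison lists, the genes with the highest and lowest summed difference were named. Replicate numbers did not pair the libraries. No genome sequence was used here.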

Additional observations from a re-analysis of the deposited data

How the results depend on the processing

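The calls of the 77 peaks depended on the library and the scaling. Against 20 higher and 2 lower, 12 were higher when the trend on level was removed and ArD_0h replicate 1 left out, both together. The lower peaks numbered 1 with DESeq2, 0 with the library totals behind RPM, 4 with the trend removed and 6 with no limit on size. With single libraries left out, the higher peaks ranged from 13 to 23 and the lower from 0 to 5, and the lower peaks over all genes ranged from 9561 (without ArR_5h replicate 1) to 17601, against 17091. The summed log2 difference of evm.TU.ctg288.3, 1.08, was 0.99 with the trend removed, 0.79 with ArD_0h replicate 1 left out as well, and 0.90 to 1.25 with single libraries left out. None of the 22 called peaks and none of the 4 gene sums changed sign in these settings, but 10 of the 77 peaks, none of them called, did so without ArD_0h replicate 1. The library totals behind RPM gave 21190 higher and 11934 lower peaks over all genes, against 16261 and 17091, with a median log2 difference of 0.09 in place of -0.07, and a median of 0.68 in place of 0.51 over the 77 peaks. With the replicate block, 22 of the 77 peaks were higher and 1 lower, and 16550 higher and 15268 lower over all genes. The deviations of libraries with the same number correlated at -0.21, 0.0039 and -0.15, so the numbers were not taken as pairs. Other size factors and no filter on low counts left all 32 values and counts on their side of the limits or within 1.5 times. The cause of these shifts was not tested. The 77 peaks held 3 to 370 counts per library (median 39), which limits the precision of the low ones.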
